A study of Oryza sativa with 6 samples.

Results

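The cellulose synthase catalytic subunit (CESA) genes of rice were described in roots exposed to copper or cadmium. They are 9 of the 29923 loci and precursor names on the array, taken by their locus numbers, and every probe carrying one of those numbers was used. Of their 32 probes 31 passed the filter on dim signals, and all 9 loci were tested. The arrays give locus numbers only, and the CESA numbers are those of the published rice naming. The RefSeq table for assembly ASM3414082v1 holds 1 gene of each CESA number, on the chromosome that the locus number gives for 9 of 9 and in the same order along it for 9 of 9. Order among CESA loci could differ only on chromosomes 3 and 7, which hold more than 1 of them.

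Each of the 6 two-colour arrays compared metal-exposed roots with water-treated roots of 6-day-old seedlings of the cultivar TN-67. In 3 of them the roots had been exposed to 5 µM copper and in the other 3 to 25 µM cadmium. How long the exposure lasted is not stated in the labels. Copper or cadmium RNA was labelled with Cy5 and water RNA with Cy3 on every array. Because no dyes were swapped, a dye effect and a metal effect cannot be told apart in a comparison with water, whereas a constant dye effect cancels between the metals. The labels call the replicates biological. The series lists 3 control replicates for 6 arrays, so the copper and cadmium arrays may share control RNA. The doses differ, so a difference between copper and cadmium is also one between doses. A whole root holds many cell types, and fewer cells of a type and less RNA per cell cannot be told apart.

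Cellulose is spun out at the plasma membrane by rosette-shaped complexes built of CESA subunits, each of which joins glucose from UDP-glucose into a glucan chain. One group of subunits makes the cellulose of the thin primary wall while cells grow. Another group, CESA4, CESA7 and CESA9 in rice, makes that of the thick secondary wall in xylem vessels and sclerenchyma, and rice mutants in these genes have brittle culms.

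After normalization, 23423 genes were tested on the log2 ratio of metal over water with limma, in 1 fit over all 6 arrays. A gene was called where its Benjamini-Hochberg adjusted p over all genes was under 0.05. A second source of grouping was the slide: copper replicates 2 and 3 and cadmium replicates 2 and 3 lay on 1 slide, and copper replicate 1 and cadmium replicate 1 each on a slide of its own. Those 2 arrays had 2.85% and 1.45% of spots left out as outliers, against at most 0.16% on the others. No spot was saturated. The median standard error of a gene was 0.0945 for a metal against water and 0.133 between the metals, and the number of arrays limits this precision.

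Of the 9 CESA loci, 6 were lower in copper roots than in water roots and 0 were higher, against 17.4% of all tested genes lower and 25.4% higher (42.9% in either direction). In cadmium roots 6 of 9 were lower and 0 higher, against 12.9% of all genes lower and 21.1% higher (34.0% in either direction). The median log2 change over the 9 loci was −0.43 with copper and −0.50 with cadmium, and over all genes it was 0.02 and 0.01. The split of all genes depends on the signals used. With the scanner's processed signals 7396 of 12333 copper calls were lower, against 4087 of 10045 here, and for cadmium 5782 of 9875 were lower, against 3031 of 7964. The 2 metals' values are given side by side and not as a count of shared loci, because the control RNA may be shared.

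**Figure D1:**
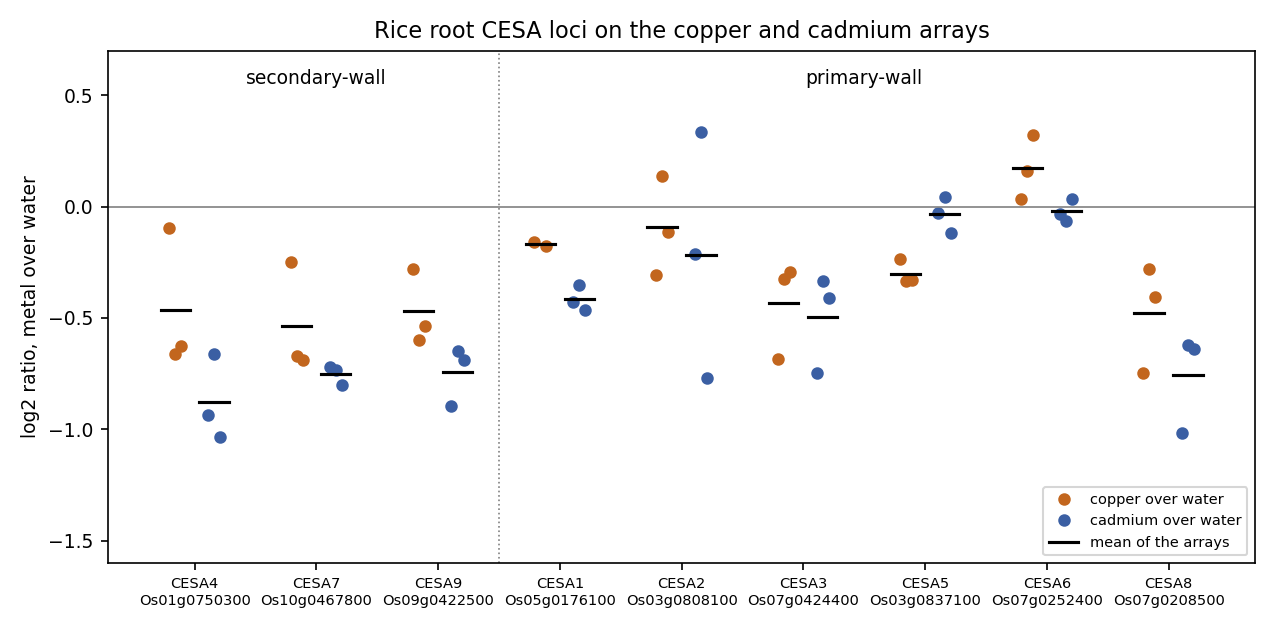
Log2 ratio of metal over water (vertical axis) for the tested probe of each CESA locus (horizontal axis), 1 point per array, copper left of cadmium, with bars at the mean of the arrays. CESA4, CESA7 and CESA9 lie below 0 on all 6 arrays, while CESA5 is below 0 on the 3 copper arrays and near 0 on the cadmium arrays.

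The 3 secondary-wall subunits were lower with each metal. CESA4 (Os01g0750300, chromosome 1) had normalized intensities of 776, 3774 and 3429.65 in copper roots, against 830.0, 5982 and 5291 in the water roots of the same arrays. In cadmium roots its intensities were 634, 882 and 2227, against 1212, 1396 and 4562 in water roots. The metal channel was the lower one on every array, by little on copper replicate 1.

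The log2 ratios of CESA4 were −0.10, −0.66 and −0.63 with copper, giving a mean change of −0.46 ± 0.13 (SE, n = 3; limma adjusted p = 0.0211), or 72.6% of the water level. On the cadmium arrays they were −0.94, −0.66 and −1.03, giving −0.88 ± 0.13 (SE, n = 3; limma adjusted p = 0.0018), or 54.4% of the water level. Only 0.897% of all tested genes had a lower change with cadmium. The copper call was lost when single arrays were left out, with adjusted p = 0.127 without copper replicate 2 and 0.130 without copper replicate 3.

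CESA7 (Os10g0467800, chromosome 10) had intensities of 3834, 11048 and 11040.2 in copper roots, against 4554, 17568 and 17778 in water roots. In cadmium roots they were 2879.7, 6427 and 8224, against 4746, 10681 and 14347 in water roots. As for CESA4, the signal of both channels was lowest on copper replicate 1 among the copper arrays and on cadmium replicate 1 among the cadmium arrays.

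The log2 ratios of CESA7 were −0.25, −0.67 and −0.69 with copper, a mean of −0.53 ± 0.10 (SE, n = 3; limma adjusted p = 0.0038), or 69.0% of the water level. The cadmium arrays gave −0.72, −0.73 and −0.80, a mean of −0.75 ± 0.10 (SE, n = 3; limma adjusted p = 0.0011), or 59.4% of the water level. Of all the tested genes 1.47% had a lower change with cadmium.

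CESA9 (Os09g0422500, chromosome 9) has a single, dim probe, which was well above background in both channels on all 6 arrays. Its intensities were 165, 157 and 155 in copper roots, against 199.97, 237 and 224 in water roots. In cadmium roots they were 128, 119.9 and 144, against 237, 188 and 232 in water roots. For each metal, the metal and water values do not overlap.

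The log2 ratios of CESA9 were −0.28, −0.60 and −0.53 with copper, a mean of −0.47 ± 0.09 (SE, n = 3; limma adjusted p = 0.0047). With cadmium they were −0.90, −0.65 and −0.69, a mean of −0.74 ± 0.09 (SE, n = 3; limma adjusted p = 0.00076), or 59.7% of the water level. The size of its change depended on how the background was treated. With the scanner's processed signals it was −0.86 with copper and −1.48 with cadmium, and both calls remained. With no background correction it was −0.39 with copper and −0.69 with cadmium, and both calls again remained.

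**Figure D2:**
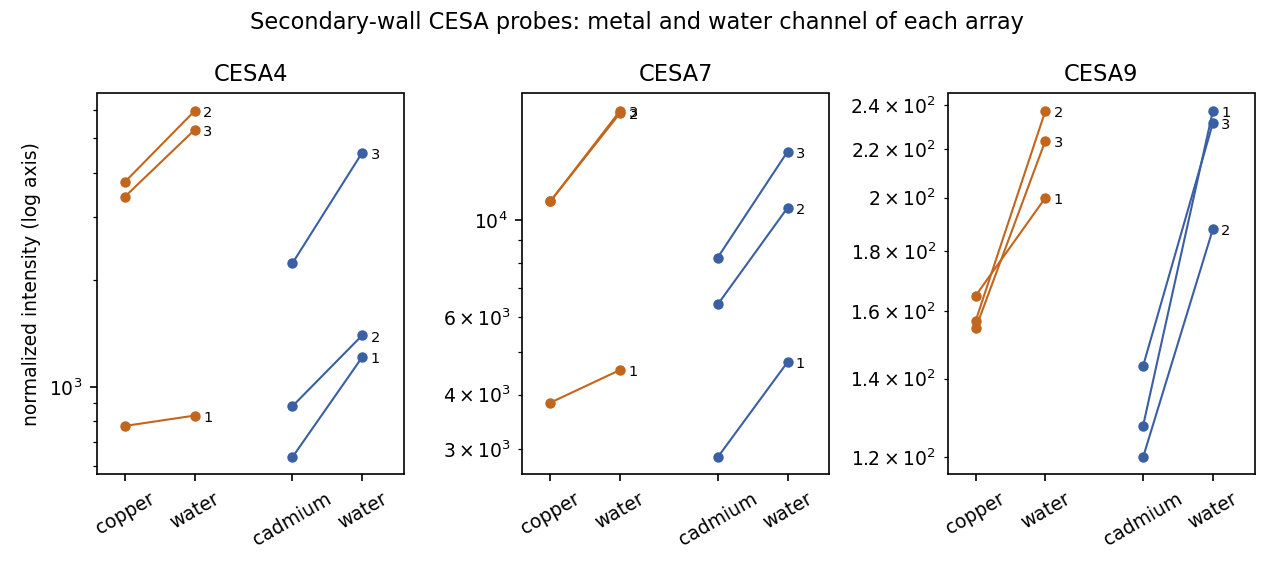
Normalized intensity (vertical log axis) of CESA4, CESA7 and CESA9 in the metal and water channels, with a line for each array, marked by its replicate number, copper arrays in orange and cadmium arrays in blue. Every line is lower at the metal end than at the water end, and replicate 1 is the lowest of its metal for CESA4 and CESA7.

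All 6 probes of the 3 secondary-wall loci were lower with copper and 6 of 6 with cadmium in a fit over the 33701 kept probes, against 17.5% and 13.7% of all probes. The mean log2 ratio over the 3 loci was −0.21, −0.64 and −0.62 on the copper arrays and −0.85, −0.68 and −0.84 on the cadmium arrays. The least change was on copper replicate 1, which stood alone on its slide. Cadmium replicate 1 also stood alone on its slide and had a mean of −0.85. Without copper replicate 1 the copper changes were −0.64 for CESA4, −0.68 for CESA7 and −0.57 for CESA9.

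Among the 6 primary-wall loci, 3 were lower with copper and 3 with cadmium, against 17.4% and 12.9% of all genes, and none was higher. Their median change was −0.23 with copper and −0.32 with cadmium. CESA8 (Os07g0208500, chromosome 7) was the lowest of them with cadmium.

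CESA8 had log2 ratios of −0.75, −0.28 and −0.40 with copper, a mean of −0.48 ± 0.12 (SE, n = 3; limma adjusted p = 0.0132), or 71.8% of the water level. On the cadmium arrays they were −1.02, −0.62 and −0.64, a mean of −0.76 ± 0.12 (SE, n = 3; limma adjusted p = 0.0024), or 59.1% of the water level. Its intensities in cadmium roots were 11266, 16422 and 18276, against 22789.5, 25246 and 28468 in water roots, which do not overlap. Both of its probes were called lower with each metal. The copper call was lost without copper replicate 1, at −0.34 (adjusted p = 0.0571), and without copper replicate 3, at −0.51 (adjusted p = 0.0524).

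CESA3 (Os07g0424400, chromosome 7) had log2 ratios of −0.69, −0.33 and −0.29 with copper, a mean of −0.43 ± 0.11 (SE, n = 3; limma adjusted p = 0.0163), or 74.0% of the water level. The cadmium arrays gave −0.75, −0.34 and −0.41, a mean of −0.50 ± 0.11 (SE, n = 3; limma adjusted p = 0.0121), or 70.8% of the water level. CESA3 and CESA8 thus had their strongest changes on the replicate 1 arrays of both metals, opposite to CESA4 and CESA7 on copper replicate 1. Without that array the copper value of CESA3 was −0.31 and was not called (adjusted p = 0.0723).

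CESA1 (Os05g0176100, chromosome 5) was lower with cadmium, with log2 ratios of −0.43, −0.35 and −0.47 and a mean of −0.42 ± 0.07 (SE, n = 3; limma adjusted p = 0.0057). With copper the tested probe rests on 2 arrays, since its spot on copper replicate 1 was an outlier. There the log2 ratios were −0.16 and −0.18, and the mean of −0.17 ± 0.09 (SE) was not called (limma adjusted p = 0.165).

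CESA5 (Os03g0837100, chromosome 3) had the other pattern. Its log2 ratios with copper were −0.24, −0.34 and −0.33, a mean of −0.30 ± 0.07 (SE, n = 3; limma adjusted p = 0.0112), or 81.2% of the water level. With cadmium they were −0.03, 0.04 and −0.12, a mean of −0.04 ± 0.07 (SE, n = 3; limma adjusted p = 0.728). All 3 copper values of this probe lie below its 3 cadmium values, but those of its other 2 probes overlap, and 1 of these was not called with copper (limma adjusted p = 0.0852). The copper call was lost without copper replicate 2 (adjusted p = 0.0717), without copper replicate 3 (adjusted p = 0.0796) and when arrays were centred on their median instead of loess-fitted (adjusted p = 0.0734).

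CESA6 (Os07g0252400, chromosome 7) was called with neither metal. Its log2 ratios were 0.04, 0.16 and 0.32 with copper, a mean of 0.17 ± 0.08 (SE, n = 3; limma adjusted p = 0.111), and −0.03, −0.06 and 0.03 with cadmium, a mean of −0.02 ± 0.08 (SE, n = 3; limma adjusted p = 0.855). It was the single CESA locus with a mean above 0 for copper. Its second probe was called higher with copper, at 0.29 (limma adjusted p = 0.046), and so was the locus itself with median centring, at 0.32 (adjusted p = 0.0416).

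CESA2 (Os03g0808100, chromosome 3) was called with neither metal, and its tested probe had the largest standard error among the 9, with an SD of 0.553 on the cadmium arrays and 0.223 on the copper arrays. Its log2 ratios were −0.31, 0.14 and −0.11 with copper, a mean of −0.09 ± 0.19 (SE, n = 3; limma adjusted p = 0.712). With cadmium they were −0.21, 0.34 and −0.77, a mean of −0.22 ± 0.19 (SE, n = 3; limma adjusted p = 0.402). The array names this probe as lying in the 5′ untranslated and coding part of the transcript, whereas the tested probes of the other 8 loci lie in the coding and 3′ untranslated part.

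The probes of CESA1 and CESA3 also differed by that annotation. With cadmium 8 of 8 probes at the 3′ end of CESA1 were lower, with changes between −0.65 and −0.34, and 0 of 2 at the 5′ end. Those 2 probes were measured on 2 cadmium arrays each, and their mean changes of −0.47 (limma adjusted p = 0.250) and −0.38 (limma adjusted p = 0.384) lie within the range of the 3′ probes. With copper 3 of the 8 were lower. For CESA3, 5 of 5 probes at the 3′ end were lower with cadmium and 4 of 5 with copper, and the 1 probe at the 5′ end was called with neither. Of all kept probes 13.7% were lower with cadmium and 17.5% with copper. Probes of 1 locus were read on the same arrays and are not replicates of each other. Over all 487 loci with kept probes of both kinds, the median difference of 5′ minus 3′ log2 ratios ran from −0.06 to 0.13 on the copper arrays and from −0.15 to 0.28 on the cadmium arrays. On cadmium replicate 2 it was 0.28 over those loci, 0.55 for CESA1 and 0.53 for CESA3. On cadmium replicate 3 it was −0.15 over those loci, −0.50 for CESA1 and −0.45 for CESA3. On these 2 arrays both loci differed in the direction of the other loci, whereas on cadmium replicate 1 the difference was 0.61 for CESA3 and −0.08 over those loci. CESA3 also went against them on copper replicate 1, at 0.45 against −0.06, and on copper replicate 3, at −0.12 against 0.07. It went with them on copper replicate 2, at 0.11 against 0.13, and CESA1 did so on every copper array. The part of these shifts in the calls was not tested.

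**Figure D3:**
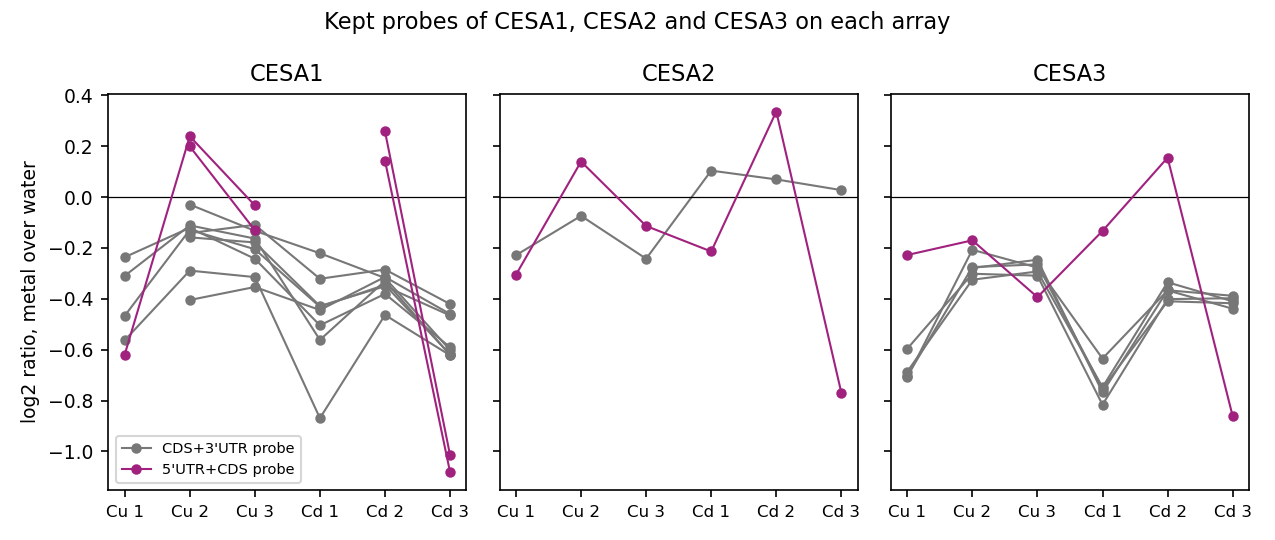
Log2 ratio of metal over water (vertical axis) of every kept probe of CESA1, CESA2 and CESA3, in a panel each, on the 6 arrays (horizontal axis), with lines joining the values of 1 probe, grey for 3′ probes and purple for 5′ probes. The 5′ probes of CESA1 and CESA3 lie above their 3′ probes on cadmium replicate 2 and below them on cadmium replicate 3, where their differences over probes were −0.50 and −0.45.

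Between the metals, 0 of 9 CESA loci passed the limma test, against 10.6% of all genes (4.06% lower and 6.57% higher with copper than with cadmium), and 1 of 9 (CESA5) had an unadjusted p under 0.05, against 25.8% of all genes. With the replicate number as a block the calls over all genes grew to 3806, against 2490 without it, and 0 of 9 CESA loci were called. The difference of copper minus cadmium was above 0 for 8 loci. For CESA4 it was 0.42, with a 95% interval of −0.00 to 0.83 and adjusted p = 0.195. The other 2 probes of CESA4 differed by 0.62 (adjusted p = 0.0106) and 0.61 (adjusted p = 0.0374) in the limma fit over probes. With the mean of its kept probes the locus differed by 0.55 (adjusted p = 0.0393).

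For the other secondary-wall loci the difference was 0.22 for CESA7, with a 95% interval of −0.11 to 0.54, and 0.27 for CESA9, with an interval of −0.02 to 0.57. It was 0.28 for CESA8, 0.25 for CESA1, 0.19 for CESA6, 0.12 for CESA2 and 0.06 for CESA3. CESA5 alone was lower with copper than with cadmium, by −0.27 with an interval of −0.50 to −0.03 (limma adjusted p = 0.142).

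Other genes of cellulose making were taken from 4 lists. Sucrose synthases split sucrose to give the UDP-glucose that the complexes use. Of 7 loci, 3 were higher with copper and 2 with cadmium, and none was lower, against 25.4% and 21.1% of all genes higher. The cadmium share is near that of all genes. Their median change was 0.29 with copper and 0.16 with cadmium. SUS2 changed by 0.49 with copper (limma adjusted p = 0.0186) and 0.45 with cadmium (limma adjusted p = 0.0321), and SUS3 by 0.29 (adjusted p = 0.0207) and 0.33 (adjusted p = 0.0164). SUS4 was higher with copper by 0.43 (limma adjusted p = 0.0251). None of the 7 was called for copper without copper replicate 3, or for cadmium without cadmium replicate 2 or 3.

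The list compiled for cellulose deposition holds 6 loci, with 3 lower for copper, 2 lower for cadmium and none higher, against 17.4% and 12.9% of all genes lower. Its median change was −0.17 with copper and −0.14 with cadmium. BC1 (Os03g0416200, chromosome 3), a COBRA-like protein needed for the mechanical strength of rice secondary walls, was the lowest. Its log2 ratios were −0.68, −0.96 and −0.93 with copper, a mean of −0.86 ± 0.10 (SE, n = 3; limma adjusted p = 0.00048), or 55.1% of the water level. With cadmium they were −1.42, −1.03 and −1.04, a mean of −1.16 ± 0.10 (SE, n = 3; limma adjusted p = 0.00014), or 44.7% of the water level. Only 0.226% of all genes had a lower change with cadmium, and both calls held in all 19 alternatives. Os09g0494200 was lower with each metal, by −0.23 with copper and −0.66 with cadmium, and Os09g0114500 with copper, by −0.35. The copper call of Os09g0494200 was lost in 11 of 19 alternatives, where its value came as near 0 as −0.07, and that of Os09g0114500 in 3. Os09g0494200 also differed between the metals by 0.43 (limma adjusted p = 0.0368), a call lost in each fit that left out 1 of the 6 arrays.

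Of the 6 cellulose synthase-like loci, related enzymes that make other wall polysaccharides or act at growing tips, 4 were tested, with 2 lower and 1 higher for each metal, the higher share being near the 25.4% and 21.1% of all genes and the lower share standing beside 17.4% and 12.9%. CSLD1, needed for root hair growth in rice, changed by −0.84 with copper and −0.59 with cadmium. CSLF6, which makes mixed-linkage glucan, changed by −0.39 and −0.62, in the same order of metals. CSLD2 changed by 0.51 with copper and was called, and CSLD4 by 0.33 with cadmium and was called. The CSLD2 call held in all 19 alternatives, the CSLD4 call was lost in 8 of 19 and the copper call of CSLF6 in 4. The cadmium call of CSLD1 was lost in 2 of 19 and that of CSLF6 in 1. The median change of the 4 was −0.10 with copper and −0.21 with cadmium. Of the 3 transcription factor loci listed for the secondary wall, 2 were tested. For each metal 1 was lower, Os06g0131700, by −0.45 with copper and −0.58 with cadmium, against 17.4% and 12.9% of all genes. The other, Os08g0103900, was called with neither. It changed by −0.22 with copper (limma adjusted p = 0.194) and −0.31 with cadmium (limma adjusted p = 0.0907). All genes named from the lists other than BC1 were chosen after their values were seen.

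**Figure D4:**
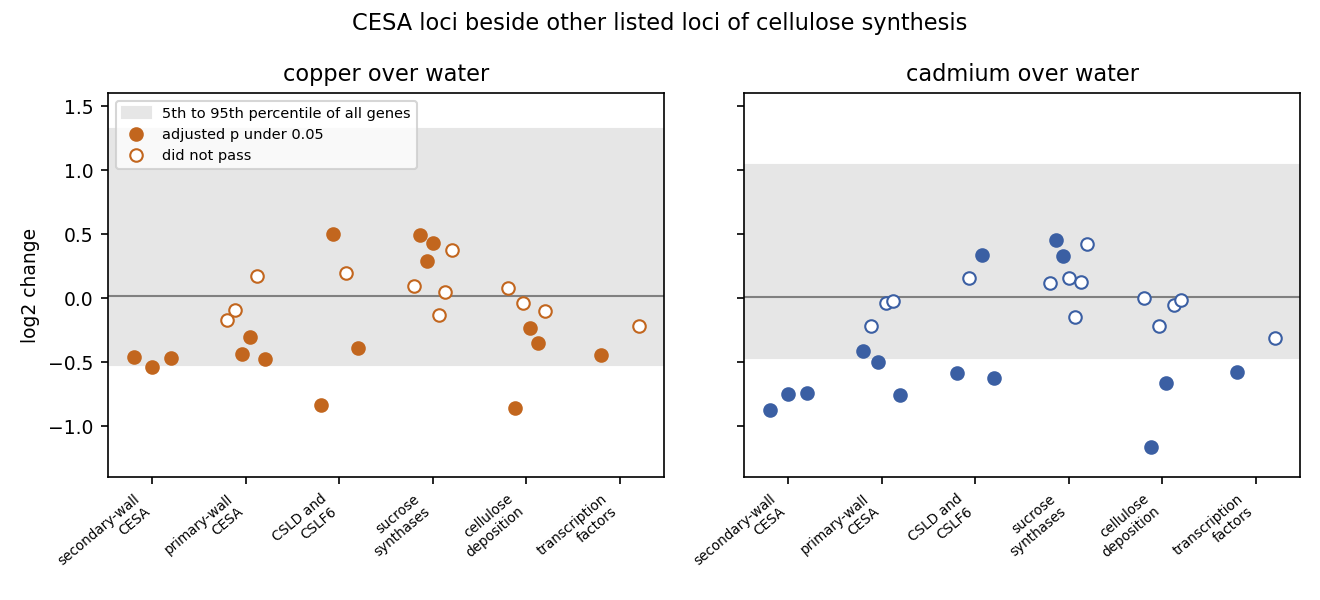
Log2 change against water (vertical axis) of each tested locus of the CESA and pathway lists (horizontal axis), copper in the left panel and cadmium in the right, with filled points for called loci, a grey line at the median of all genes and a grey band from their 5th to 95th percentile. BC1 is the lowest point, at −0.86 with copper and −1.16 with cadmium, and the called sucrose synthases lie above 0.

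The 3 loci nearest to the mean of the secondary-wall CESA genes, by the Euclidean distance of 6 log2 ratios among 22600 loci, were Os02g0538700 at 0.162, Os02g0106100 at 0.210 and Os08g0176100 at 0.219. Nearest to the mean of the 6 primary-wall loci were Os04g0426700 at 0.0975, Os09g0278300 at 0.134 and Os02g0716100 at 0.149.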

How the data were processed

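The authors deposited 1 scanner file per array with background and spot intensity values in both channels (Agilent Feature Extraction 10.7.1.1, per the file headers), including a log10 ratio of Cy5 over Cy3, and a table of log2 ratios per probe. Set against the scanner's own ratios, the columns of that table ran the same way and on the same scale (r between 0.988 and 1.000), uncentred, with medians of −0.191 to −0.050.

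Median spot and background intensities were corrected with normexp (offset 50) and normalized within each array by loess with limma 3.58.1 in R 4.3.3, leaving out outlier spots. Probes well above background on all 3 arrays of a metal, in either channel, were kept, 33701 of 42477. The brightest kept probe stood for a locus. A normalized intensity is on this corrected scale after a further quantile normalization of average intensities between arrays (Aquantile in limma). The log2 ratios tested did not use that step. Apart from the choice of the brightest, intensities of different probes were not set against each other, whereas their log2 ratios and ranges were. The p-values measure the spread between arrays. The main fit had no slide term, so arrays of a metal lying on the same slide were counted as separate samples. The slide correlation was 0.664, so the standard errors and p-values given with n = 3 do not rest on 3 independent arrays. The fit and its calls were tested on simulated data with independent arrays. That simulation held no slide effect and no shared control RNA, so it cannot check the calls for either.

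Deviations from the group means over 22608 genes correlated between copper and cadmium arrays at 0.365, 0.245 and 0.269 for same replicate numbers. Arrays 2 and 3, which share a slide, also correlated across numbers, at 0.234 and 0.190. Between replicate 1 of a metal and replicates 2 and 3 of the other the values ran from −0.311 to −0.271. Deviations from a group mean cancel within a metal, so these values cannot show that replicate numbers pair the arrays.

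All 9 CESA loci were named. List members were named by rule where called with a log2 change of at least 1, at most 4 per list. The members and lists were chosen with earlier results of these data known. Alternatives covered signals, background, centring, filter, probe choice, slide, replicate block and each array left out. No probe sequences were used here. The RefSeq table holds no locus numbers to join on. CESA and list names were given where it holds a gene of that name on the chromosome of the locus number. For BC1 it holds 2 genes of that name, 1 of them on that chromosome.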

Additional observations from a re-analysis of the deposited data

Results flagged for a closer look

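The further 3′ probe of CESA2 lay below 0 on all 3 copper arrays, at −0.23, −0.07 and −0.24, and above 0 on all 3 cadmium arrays, at 0.10, 0.07 and 0.03. The difference of copper minus cadmium was −0.25, and it did not pass the limma test over probes (adjusted p = 0.163). Neither change against water passed, with adjusted p = 0.071 for copper and 0.495 for cadmium.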

How the results depend on the processing

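Each comparison was recomputed under up to 20 alternatives. Of 522 values of single CESA loci, 490 kept their sign and side of the threshold, 11 copper calls lost the threshold and 6 values gained it. The other 15 changed sign and were called in neither setting. They include CESA2 with cadmium (0.07 with the brightest 3′ probe, 0.06 without cadmium replicate 3), CESA2 between the metals (−0.25 with that probe), CESA6 with cadmium (0.12 with median centring) and CESA1 with copper (0.00 with centred processed signals). No called value changed sign. The cadmium count stayed at 6 of 9 in all 19 alternatives. Leaving out copper replicate 1 or 2 brought the copper count to 4 of 9, and leaving out copper replicate 3 brought it to 3. Dropping any cadmium array instead left the copper count at 6. The mean of kept probes gave 1 call between the metals (CESA4), and slide as a random block gave 1 (CESA5, −0.28, adjusted p = 0.0405). The replicate block gave 6 copper calls, 6 cadmium calls and 0 between the metals, and changed no call of a CESA locus. On the 4 arrays of the shared slide 7 loci were called for copper (6 lower and CESA6 higher), 6 for cadmium and 0 between the metals. With processed signals centred on each array's median, the copper calls of CESA3 (−0.28, adjusted p = 0.102), CESA5 (−0.27, adjusted p = 0.0722) and CESA8 (−0.34, adjusted p = 0.0612) were lost. The cause was not tested. All 3 secondary-wall loci were called in 17 of 19 alternatives for copper and 19 of 19 for cadmium. The brightest 3′ probe and normexp with no offset were chosen after seeing the data, and with no offset CESA9 changed by −0.67 with copper and −1.07 with cadmium. Processed signals moved the median of all genes to −0.13 with copper and −0.11 with cadmium. Over all genes, copper calls fell to 6593 without copper replicate 2 and 5764 without copper replicate 3, against 10045. Cadmium calls fell to 4493 without cadmium replicate 2 and 5125 without cadmium replicate 3, against 7964. Calls between the metals rose to 6076 on the shared slide and 5876 with slide as a random block, against 2490. CESA9, whose signal was low over background, is limited by it, since its size moved with the background treatment.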

Other observations

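The water channel gives each probe's signal in roots without added metal. For the tested probes its highest over lowest intensity across the 6 arrays was 7.21 for CESA4 and 3.90 for CESA7, against a median of 1.82 over all tested genes, and 96.1% of genes had a smaller range than CESA4. The water signal of that CESA4 probe ran from 830.0 on copper replicate 1 to 5982 on copper replicate 2. CESA9, CESA3 and CESA8 had ranges of 1.26, 1.32 and 1.32. CESA2 had 2.48 and CESA5 had 2.08. The tested CESA1 probe had 4.44 over the 5 arrays that measured it, and the CESA1 probes ran from 1.40 to 6.10.
The range is that of a probe: the other 2 CESA4 probes spanned 2.58 and 3.15, the second CESA7 probe 3.07, and the second CESA6 probe 9.07 against 1.73 for its tested probe.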
